A study of Drosophila melanogaster with 10 samples.

Results

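Regions that carried a peak of the chromatin protein CP190 and of none of 4 other mapped proteins were described. Binding sites of CP190, Su(Hw), Mod(mdg4)2.2, Rump and Shep had been mapped by ChIP-seq, in which DNA crosslinked to a protein is recovered with an antibody and sequenced. The regions were chosen by the deposited peak positions: peaks of the 5 lists that overlapped by 1 bp or more were merged, and merged regions with a CP190 peak and no peak of another list were kept. Of 5224 merged regions, 2720 held CP190 and 1003 of these held CP190 only. All libraries came from Kc167 cells, an established Drosophila melanogaster line of embryonic origin, grown at 25 °C without any treatment or genetic change named in the labels. Of 10 libraries, 8 were ChIP libraries and 2 were inputs. CP190 was precipitated with 1 rabbit antibody from the second of 2 chromatin preparations, with that preparation's input. Su(Hw) was precipitated with 1 rabbit antibody, Mod(mdg4)2.2 and Shep each with a guinea pig and a rabbit antibody, and Rump with the antibodies 10c3 and 5g4, all from the first preparation.

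CP190 is a protein with a BTB domain and zinc fingers that is brought to chromatin by DNA-binding partners. In the gypsy insulator the partner is Su(Hw), which recognises DNA through its zinc fingers, and Mod(mdg4)2.2 is the third core component. CP190 is also known at insulator sites of other DNA-binding proteins, such as CTCF and BEAF-32, and at promoters. None of those partners was mapped in this series. Rump, related to hnRNP M, and Shep both bind RNA, and Shep is known to modulate the gypsy insulator.

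Several properties of the lists bear on what CP190 only means. It means that none of the 4 other lists has a peak there, not that the proteins were absent, and the rule sets a list from the second preparation against 4 lists from the first, so that preparation and factor cannot be told apart. Sites bound weakly in many cells and sites bound in few cells cannot be told apart either. The lists hold 2742 peaks for CP190, 2678 for Mod(mdg4)2.2, 2369 for Su(Hw), 1443 for Shep and 338 for Rump. There is 1 list per factor and no replicate list, so that the 95% Wilson intervals given with shares cover counting error only, and sequencing depth is unknown here. The CP190 list has no score, and peak width was the measure of a CP190 peak apart from its position. Positions are those of build dm3, counted from 1. No sequence or gene annotation of that build was used here, so that neither motifs nor genes at these regions were analysed.

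CP190-only regions made up 19.2% (18.2 to 20.3) of all merged regions and 36.9% (35.1 to 38.7) of regions with CP190. Each of the 1003 held a single CP190 peak, so that region and peak are the same interval. Among regions with CP190, 52.4% (50.5 to 54.3) held Mod(mdg4)2.2, 42.7% (40.8 to 44.6) Su(Hw), 13.0% (11.8 to 14.3) Shep and 8.97% (7.95 to 10.1) Rump. The share of regions with no partner among the mapped proteins differed from factor to factor. It was 58.9% (56.3 to 61.5) for Shep, 26.0% (24.3 to 27.8) for Su(Hw), 14.1% (10.8 to 18.3) for Rump and 12.3% (11.1 to 13.7) for Mod(mdg4)2.2, so that CP190 lay between Shep and Su(Hw). These shares come from lists of unlike peak width, since every Mod(mdg4)2.2 peak is 304 bp wide, every Rump peak 256 bp and every Shep peak 484 bp, while the medians for Su(Hw) and CP190 are 2106 and 2025 bp. The nearest combinations by content were Mod(mdg4)2.2 with CP190 alone (292 regions), Shep with CP190 alone (184) and Su(Hw) with CP190 alone (90).

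**Figure D1:**
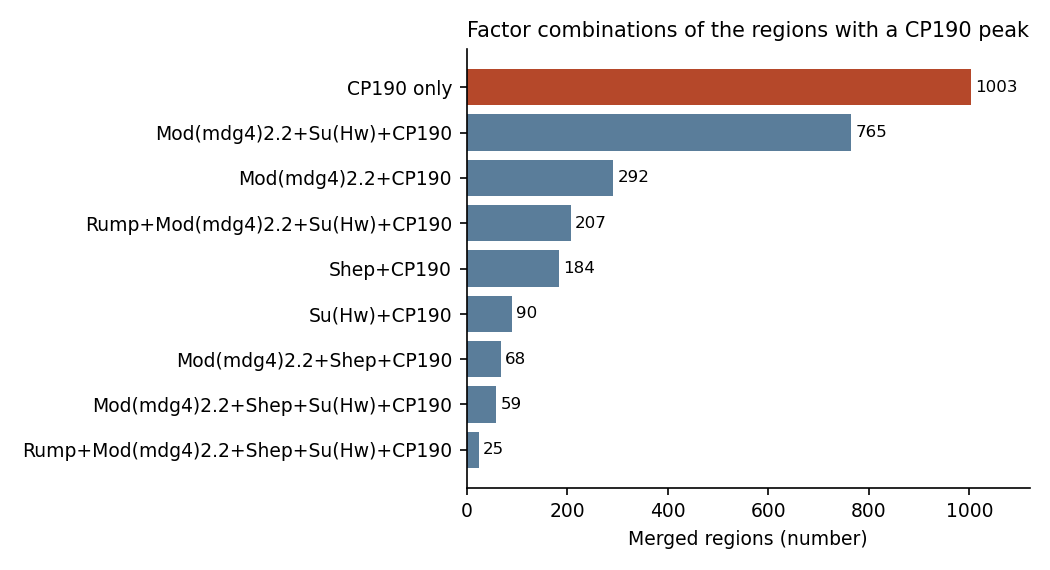
Number of merged regions (horizontal axis) for the 9 most frequent factor combinations that include CP190; the CP190-only bar is in red. CP190 only is the longest bar with 1003 regions, ahead of the 765 regions with Mod(mdg4)2.2, Su(Hw) and CP190.

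The number depended in part on which lists were set against CP190. Without the Mod(mdg4)2.2 list, 1295 regions had no other factor (47.6%, 45.7 to 49.5), without the Shep list 1187 (43.6%, 41.8 to 45.5), without the Su(Hw) list 1107 (40.4%, 38.6 to 42.2) and without the Rump list 1005 (36.9%, 35.2 to 38.8). Mod(mdg4)2.2 thus took away the most regions that no other list took away, and Rump took away 2. The Shep list includes 454 peaks whose q, as deposited, exceeds 0.05. Without these, 1053 regions were CP190 only. With the higher-scoring 50% of the Mod(mdg4)2.2, Shep and Rump lists, there were 1344.

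The rule has a sharp edge, but few members lay close to it. Just inside it, the smallest gap was 5 bp, between the region chr2L:12992400-12993464 and a Mod(mdg4)2.2 peak. The next were 33 bp to a Su(Hw) peak at chr3L:2621431-2623408, 36 bp and 38 bp to Shep peaks at chrX:1129720-1131852 and chrX:19531430-19533624, and 93 bp to a Su(Hw) peak at chr3L:173393-175151. Just outside it, the CP190 peak shared 7 bp with the only other peak of the region, of Mod(mdg4)2.2, at chr3R:4804755-4807103. The next shared 11 bp with a Shep peak at chr3R:1196525-1198633, 45 bp with Shep at chr3R:4484698-4487277, 51 bp with Su(Hw) at chrX:7184414-7187922 and 139 bp with Shep at chr3R:9499577-9501944. In all, 30 of the 1003 members (2.99%, 2.10 to 4.24) lay within 500 bp of a peak of another list and 53 (5.28%, 4.06 to 6.85) within 1 kb. With an overlap of at least 100 bp required, 1008 regions were CP190 only.

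Most CP190-only regions lay several kilobases from any peak of the other lists. From edge to edge the median distance was 10.7 kb (quartiles 4.44 and 22.1 kb), and the largest was 114 kb. Within 5 kb, 285 members (28.4%, 25.7 to 31.3) had such a peak, 480 (47.9%, 44.8 to 51.0) had one within 10 kb and 956 (95.3%, 93.8 to 96.5) within 50 kb. For scale, another merged region of any kind lay within 5 kb of 38.9% of members and 43.9% of all merged regions. Within 10 kb these shares were 60.8% and 64.7%, so that members were spaced much like merged regions in general. By list, the median was 21.1 kb to Su(Hw) (quartiles 8.95 and 41.0 kb), 24.0 kb to Mod(mdg4)2.2 (10.4 and 45.6 kb), 27.0 kb to Shep (9.68 and 64.3 kb, over the 1002 members on chromosomes with a Shep peak) and 157 kb to Rump (68.2 and 323 kb). Mod(mdg4)2.2 has more peaks than Su(Hw) and lay slightly farther away, also from midpoint to midpoint (medians 25 and 23 kb). Su(Hw)-only regions lay about as far from any list but their own, with a median of 10.3 kb (quartiles 4.1 and 21.8 kb). Measured in this way, the median was 6.79 kb for Shep-only, 4.2 kb for Mod(mdg4)2.2-only and 51.3 kb for Rump-only regions. The lists measured against differ from kind to kind in number and width of peaks. For all kinds except CP190 only, they include the CP190 list with its wide peaks. As distance at the members was fixed in part by the rule, these values are a description.

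**Figure D2:**
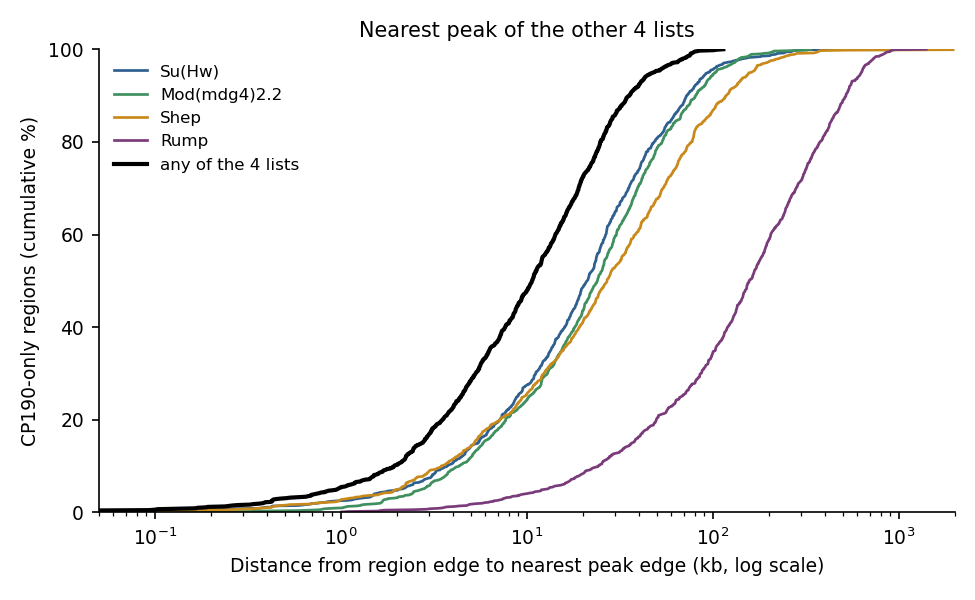
Cumulative percentage of the 1003 CP190-only regions (vertical axis) by distance in kb from the region edge to the nearest peak edge of each other list (horizontal axis, log scale); the black line is the nearest peak of any of the 4 lists. Half-way up, the black line is at 10.7 kb, those of Su(Hw), Mod(mdg4)2.2 and Shep are between 21.1 and 27.0 kb, and that of Rump is at 157 kb.

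Which factor came closest depended on how distance was measured. From edge to edge, Su(Hw) supplied the nearest peak at 490 members (48.9%), Shep at 386 (38.5%), Mod(mdg4)2.2 at 121 (12.1%) and Rump at 6 (0.598%). The 6828 peaks of these 4 lists are 34.7% Su(Hw), 21.1% Shep, 39.2% Mod(mdg4)2.2 and 4.95% Rump. Wide Su(Hw) peaks that enclose a Mod(mdg4)2.2 peak are always nearer by their edge. From midpoint to midpoint, Shep was nearest at 38.0% of members, Su(Hw) at 31.4%, Mod(mdg4)2.2 at 27.6% and Rump at 2.99%. Shep thus exceeded its part of the peaks under both measures, Mod(mdg4)2.2 fell short of it under both, and Su(Hw) lay above it by edges and below it by midpoints. This part counts every peak, although only 1 of the peaks that share a region can be nearest. Mod(mdg4)2.2 and Su(Hw) shared 765 regions with CP190 and 486 with no other factor, while 812 of 1378 regions with Shep held Shep only. How far this shaped the comparison was not tested.

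Set beside other regions with CP190, CP190-only regions less often had a Mod(mdg4)2.2 or Su(Hw) peak nearby, and about as often a further CP190 peak. A Mod(mdg4)2.2 peak outside the region, within 10 kb of its edges, was found at 242 of the 1003 members (24.1%, 21.6 to 26.9) and at 691 of the 1717 other regions with CP190 (40.2%, 37.9 to 42.6). For Su(Hw) the shares were 27.4% (24.7 to 30.3) and 41.2% (38.9 to 43.5). For Rump they were 3.99% (2.94 to 5.38) and 5.88% (4.86 to 7.10), whose intervals overlap. Shep went the other way, with 25.5% (22.9 to 28.3) at CP190-only regions and 22.0% (20.1 to 24.0) at the others, again with overlapping intervals. A further CP190 peak lay within 10 kb of 40.3% (37.3 to 43.3) of members and of 42.2% (39.9 to 44.6) of the others. The lists counted here, apart from CP190, also sorted the regions into members and others, so that the rule bears on these shares. Neighbouring regions on a chromosome are not independent, and these differences were not tested.

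**Figure D3:**
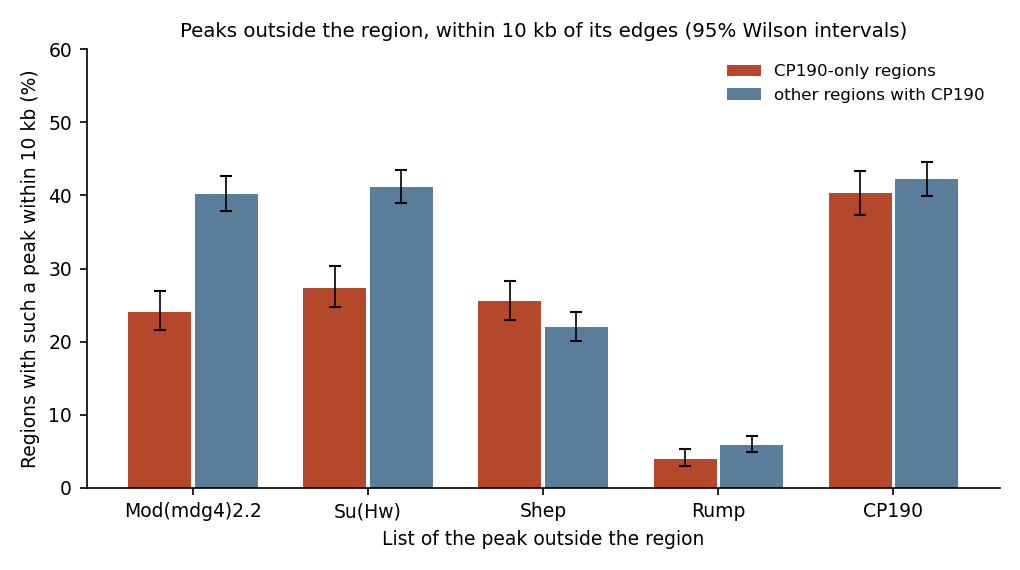
Percentage of regions (vertical axis) with a peak of the list named on the horizontal axis outside the region and within 10 kb of its edges, for the 1003 CP190-only regions (red) and the 1717 other regions with CP190 (blue); error bars are 95% Wilson intervals. The red and blue bars stand at 24.1% and 40.2% for Mod(mdg4)2.2 and at 27.4% and 41.2% for Su(Hw), and their intervals overlap for Shep, Rump and CP190.

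The difference for Mod(mdg4)2.2 was seen on each large arm. On 2L the share was 22.8% (17.4 to 29.4) at CP190-only regions and 41.2% (35.6 to 47.0) at other regions with CP190. On 3L it was 20.6% (15.6 to 26.8) and 35.2% (30.2 to 40.4), and on X 23.2% (18.1 to 29.2) and 41.7% (36.6 to 47.0). The arms 2R (26.5% against 41.0%) and 3R (28.7% against 41.6%) had the same direction. For Su(Hw) the lower value was also that of the members on all 5 arms, from 23.1% on 3L to 35.6% on 3R, against 37.0% to 45.3%. A Mod(mdg4)2.2 peak lay within 5 kb of 11.9% of members and 22.9% of the others, and within 20 kb of 43.6% and 61.1%. The values by arm and by distance all come from the same split by the rule, so that they give no separate support.

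The surroundings were then compared by what the other regions held. Regions with CP190 and Shep alone had Mod(mdg4)2.2 peaks nearby about as often as CP190-only regions, at 26.1% (20.3 to 32.9), and those with CP190 and Su(Hw) alone at 20% (13.0 to 29.4). Where CP190 went with Mod(mdg4)2.2 alone, the share was 37.0% (31.7 to 42.7), and in regions with Mod(mdg4)2.2, Su(Hw) and CP190 it was 48.8% (45.2 to 52.3). The higher values were thus those of the regions with Mod(mdg4)2.2 in the region itself. For Su(Hw) peaks nearby, the share was 26.1% (20.3 to 32.9) with CP190 and Shep alone, against 27.4% (24.7 to 30.3) at CP190-only regions. With CP190 and Su(Hw) alone it was 33.3% (24.5 to 43.6), an interval that overlaps that of the members. It was 39% (33.6 to 44.7) with CP190 and Mod(mdg4)2.2 alone and 49.4% (45.9 to 52.9) with Mod(mdg4)2.2, Su(Hw) and CP190. Shep peaks outside the region, within 10 kb, were most frequent around the regions with CP190 and Shep alone, at 40.8% (33.9 to 48.0), against 25.5% around CP190-only regions and 17.5% (15.0 to 20.4) around the regions with Mod(mdg4)2.2, Su(Hw) and CP190.

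The peaks near CP190-only regions had median scores close to those of the rest of their own lists. The score is the authors' deposited signal value for each peak, and is comparable only within a list. The 298 Mod(mdg4)2.2 peaks within 10 kb of a CP190-only region had a median score of 97.8 (quartiles 58.7 and 205), and the 2380 farther away 99.1 (63.2 and 187). The 298 Shep peaks within 10 kb had a median of 109 (90.9 and 132), against 108 (91.5 and 139) for the other 1145. The 38 Rump peaks within 10 kb had a median of 24.5 (18.4 and 36.8), against 24.6 (20.6 and 33.4) for the other 300.

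CP190-only regions had a CP190-only region as their nearest more often than other regions with CP190 did. The nearest merged region was itself CP190 only for 267 of the 1003 members (26.6%, 24.0 to 29.4), for 18.6% of all 5224 merged regions and for 16.8% (15.1 to 18.7) of other regions with CP190. Shep-only regions, at 21.9% (19.2 to 24.9), lay between these, with an interval that overlaps that of the members. The nearest region held CP190, alone or with others, for 557 members (55.5%, 52.4 to 58.6), against 50.7% of all merged regions and 54.2% (51.9 to 56.6) of other regions with CP190. Members and other regions with CP190 thus differed in the share with a CP190-only neighbour, by counts that were not tested, and had similar shares with any CP190 neighbour. After CP190 only, the most frequent kinds of nearest region were Shep only, at 19.8% of members, Mod(mdg4)2.2 with Su(Hw) and CP190, at 11.4%, and Su(Hw) only, at 10.4%. These kinds make up 15.5%, 14.6% and 11.8% of all merged regions.

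On 2L the nearest region was CP190 only for 31.0% (24.7 to 38.0) of members and 13.7% (10.2 to 18.2) of other regions with CP190, on 3L for 30.2% (24.2 to 36.9) and 19.4% (15.5 to 24.0), and on X for 29.1% (23.5 to 35.4) and 17.8% (14.1 to 22.2). On 2R (22.1% and 18.0%) and 3R (20.2% and 15.7%) the direction was the same and the intervals overlapped. The distance to the nearest merged region was not shorter for members. Its median was 7.17 kb (quartiles 2.98 and 15.2 kb), against 6.30 kb (2.56 and 13.7 kb) for other regions with CP190 and 6.21 kb (2.21 and 14.0 kb) for all merged regions. Another merged region lay within 10 kb of 610 members (60.8%, 57.8 to 63.8), against 64.7% of all merged regions.

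Runs of CP190-only regions along the chromosomes were mostly short. The 1003 members formed 746 runs of consecutive merged regions, of which 565 were single regions, 124 held 2, 41 held 3, 13 held 4 and 3 held 5. The 3 longest runs lay at chr2L:6970807-7056687, chr3L:4312528-4404377 and chrX:19611187-19657387, and spanned 85.9, 91.8 and 46.2 kb. In the run on X, the 5 peaks were 2327, 480, 2066, 1874 and 1660 bp wide and the gaps between them were 18359, 5037, 2347 and 12051 bp. Successive regions with CP190 were separated by a median of 24.2 kb where both were CP190 only (429 pairs), 28.2 kb where 1 was (1140 pairs) and 23.4 kb where neither was (1142 pairs). The closest pair of CP190-only regions was 50 bp apart.

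Few members lay in any 1 window along the arms. Of 1187 windows of 100 kb on 2L, 2R, 3L, 3R and X, 553 (46.6%) held no CP190-only region, 377 held 1, 257 held 2 or more and 17 held 4 or more, with a maximum of 5. The first 3 windows with 5 members in order of chromosome and position were chr2L:200001-300000 and chr2L:5000001-5100000, both without another CP190 region, and chrX:6100001-6200000, with 1. For the 1707 other regions with CP190 on these arms, 331 windows (27.9%) held none and the maximum was 9. There were 995 members on these arms, with a mean of 0.838 per window, against 1.44 for the others. The variance of the counts divided by their mean was 1.15 for members and 1.21 for the others. The emptier windows of the members thus went with their smaller number. The 3 members farthest from any other merged region were all on 2L. They were chr2L:2584445-2586527, with 77.8 kb to the nearest region, chr2L:16048786-16050774 with 73.3 kb and chr2L:6249156-6250520 with 72.1 kb.

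CP190-only regions were under-represented on the right arm of chromosome 3 relative to other regions with CP190, and on the other arms no difference passed the test. The rule did not choose regions by chromosome, and both sides of this comparison come from 1 list and 1 chromatin preparation. The split between the sides was made by the other lists, all from the first preparation. Where those lists have peaks on each arm therefore bears on the comparison, and the test cannot separate this from where CP190 lies. Regions with CP190 were 616 of 1292 merged regions on 3R. They were 526 of 975 on 2R, 563 of 1019 on X, 529 of 939 on 3L and 468 of 888 on 2L. On 3R lay 188 of the 1003 members (18.7%, 16.4 to 21.3) and 428 of the 1717 other regions with CP190 (24.9%, 22.9 to 27.0), an odds ratio of 0.695 (95% interval 0.570 to 0.845, adjusted p = 0.00126, Fisher's exact test, two-sided, adjusted by Benjamini-Hochberg over 6 chromosomes). The test treats regions as independent and compares parts of 1 list, not cultures. With all peaks resized to 300 bp around their midpoints, the odds ratio was 0.809 and the call did not pass the threshold of 0.05 (adjusted p = 0.146, Fisher's exact test). In the other 9 alternatives it ran from 0.679 to 0.748 and passed. Among these, direct overlap of CP190 peaks hardly changes the groups (odds ratio 0.692).

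The other shares were 21.9% (19.5 to 24.6) of members and 20% (18.2 to 21.9) of other regions with CP190 on X, 20.3% and 18.8% on 2R, 19.8% and 19.2% on 3L, and 18.3% and 16.5% on 2L. None of these passed the threshold. The odds ratios were 1.13 on X (0.925 to 1.37) and 1.13 on 2L (0.918 to 1.40), both with an adjusted p of 0.472 by Fisher's exact test, 1.11 on 2R (0.904 to 1.35) and 1.04 on 3L (0.850 to 1.27). Chromosome 4 held 6 members and 7 other regions with CP190 (odds ratio 1.47, 0.407 to 5.12). Per megabase, 3R held 6.74 members, against 8.01 on 2L, 8.23 on 3L, 9.68 on 2R and 9.81 on X, with the end of the last peak in any list taken as the length of an arm. Other regions with CP190 were at 15.4 per Mb on 3R, 15.3 on 2R and X, 13.7 on 3L and 12.4 on 2L. The lower share on 3R therefore went with fewer members per megabase beside a density of other CP190 regions that was no lower than on the other arms. Of all merged regions, 24.7% (23.6 to 25.9) lay on 3R, as did 28.0% (24.6 to 31.6) of Su(Hw)-only, 27.3% (24.4 to 30.5) of Shep-only and 24.2% (19.6 to 29.3) of Mod(mdg4)2.2-only regions, whose intervals all overlap that of all regions. The median distance from a member to the nearest peak of another list was 7.64 kb on 3R, against 9.95 kb on 2R, 10.9 kb on X, 11.3 kb on 2L and 14.3 kb on 3L, and the part of these distances in the share on 3R was not tested.

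**Figure D4:**
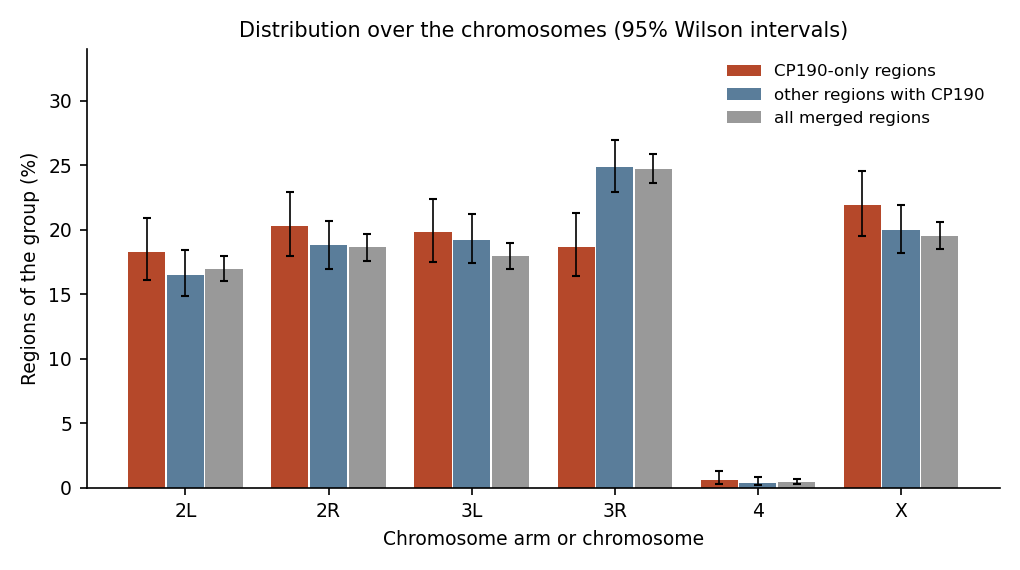
Percentage of each group of regions (vertical axis) on each chromosome arm or chromosome (horizontal axis), for CP190-only regions (red, 1003), other regions with CP190 (blue, 1717) and all merged regions (grey, 5224); error bars are 95% Wilson intervals. On 3R the red bar stands at 18.7%, below the blue bar at 24.9%; on the other arms their intervals overlap.

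Along the arms no gradient was seen. With 2L, 2R, 3L, 3R and X each divided into 5 equal parts from the telomere to the centromere, CP190-only regions made up 37.5% (33.6 to 41.4), 36.3% (32.4 to 40.4), 37.2% (33.2 to 41.4), 34.9% (31.0 to 39.0) and 38.3% (34.2 to 42.7) of regions with CP190. On 3R the 5 counts lay between 35 and 41 members, so that members were spread evenly along that arm. The widest range was on 2L, from 24 members in the fourth part to 46 in the second. Outside the arms and chromosome 4 there were 2 members, at chr3RHet:2377409-2379504 in heterochromatin and at chrU:9635553-9636032 in unplaced sequence.

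CP190 peaks in CP190-only regions were narrower than other CP190 peaks. Their median width was 1972 bp (quartiles 1566 and 2062 bp, range 480 to 4563 bp), against 2057 bp (1967 and 2143 bp, range 480 to 5492 bp) for the 1739 other CP190 peaks. The difference in medians was small, and the lower part of the distribution differed more, with the 10th percentile at 1000 bp for members and 1597 bp for the others. The lists are made of distinct width classes. Of the 2742 CP190 peaks, 139 are exactly 480 bp wide and the next narrowest is 1000 bp wide. Similarly, 51 Su(Hw) peaks are exactly 300 bp wide and the next is 1000 bp wide. The 480 bp class held 94 members (9.37%, 7.72 to 11.3) and 45 other CP190 peaks (2.59%, 1.94 to 3.44). At the upper end, 61 members (6.08%, 4.76 to 7.74) and 285 other peaks (16.4%, 14.7 to 18.2) were wider than 2200 bp. A wider peak meets other peaks more often, so that width bears on the rule and was not tested.

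The share of CP190 peaks that were CP190 only fell from class to class of width. It was 67.6% (59.5 to 74.8) at 480 bp, 57.3% (51.0 to 63.4) from 1000 to 1499 bp, 50% (44.6 to 55.4) from 1500 to 1899 bp, 42.6% (37.9 to 47.5) from 1900 to 1999 bp and 33.4% (30.3 to 36.7) from 2000 to 2099 bp. Above that it was 21.7% (18.3 to 25.7) from 2100 to 2199 bp, 18.1% (13.9 to 23.3) from 2200 to 2999 bp and 15.7% (9.61 to 24.7) from 3000 bp. With all peaks of all lists set to 2000 bp around their midpoints, a setting chosen after seeing the data, the share went from 65.5% (57.2 to 72.9) at a deposited width of 480 bp to 15.7% (9.61 to 24.7) in the widest class. With all peaks set to 300 bp it did not fall throughout. It went from 71.2% (63.2 to 78.1) at 480 bp to 24.7% (21.0 to 28.8) from 2100 to 2199 bp, and was 64.0% (53.7 to 73.2) in the widest class. The part of peak reach in the fall with deposited widths was not tested.

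**Figure D5:**
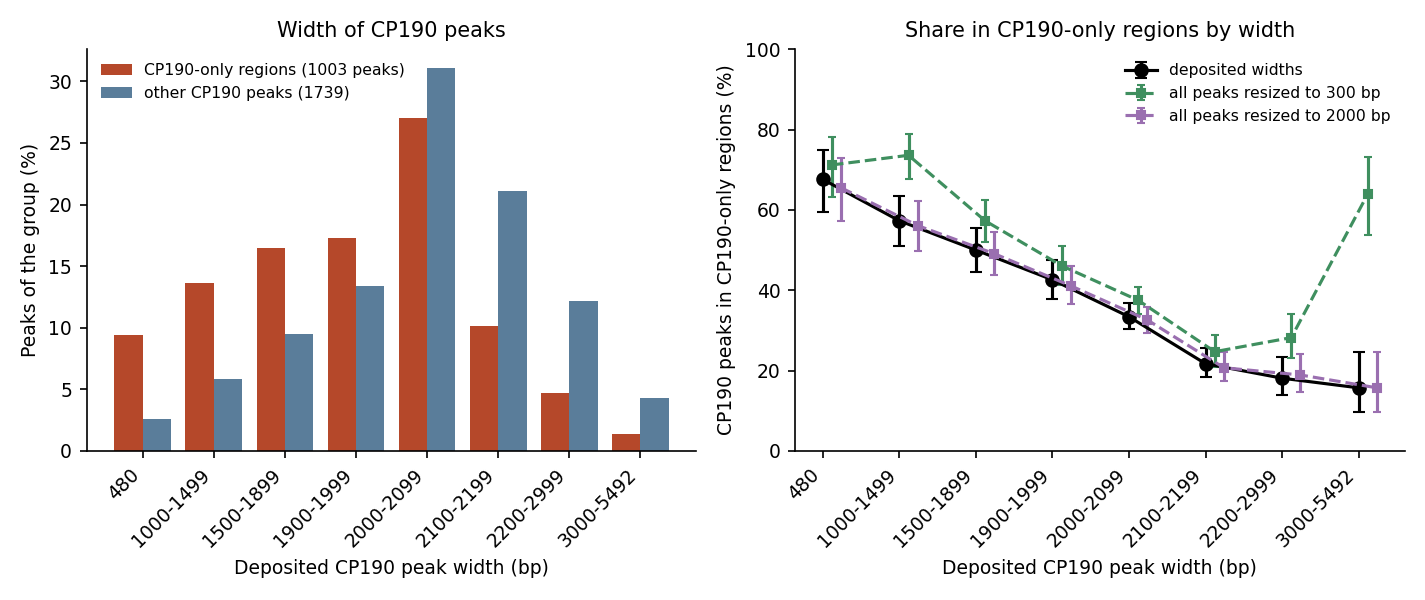
Left, percentage of the peaks of each group (vertical axis) by class of deposited CP190 peak width in bp (horizontal axis), for the 1003 peaks of CP190-only regions (red) and the 1739 other CP190 peaks (blue). Right, percentage of the CP190 peaks of each class that lie in CP190-only regions, with 95% Wilson intervals, for the deposited widths and for all peaks resized to 300 or 2000 bp: with deposited widths it goes from 67.6% to 15.7%.

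The widths of members were then set beside those of CP190 peaks in other combinations. Where CP190 went with Su(Hw) alone, the median was 1940 bp (quartiles 1436 and 2036 bp), with 12.2% (6.96 to 20.6) of 90 peaks at 480 bp. With Shep alone it was 2008 bp (1703 and 2107 bp), with 4.89% (2.59 to 9.03) of 184 at 480 bp. With Mod(mdg4)2.2 alone it was 2094 bp (2012 and 2151 bp), with 1.37% (0.534 to 3.47) of 292 at 480 bp. With Mod(mdg4)2.2 and Su(Hw) it was 2038 bp (1958 and 2125 bp), with 2.05% (1.27 to 3.31) of 780 at 480 bp, and with Mod(mdg4)2.2, Su(Hw) and Rump it was 2097 bp (2044 and 2172 bp), with 0 of 211. On each of the 5 arms the median of the members was below that of other CP190 peaks, the difference being largest on 2R (1915 against 2048 bp). The members of 480 bp lay at a similar distance from other lists. Their median distance to the nearest peak was 10.1 kb (quartiles 4.60 and 18.7 kb), against 10.8 kb (4.43 and 22.4 kb) for the 909 wider members.

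Some members were wide. Peaks of more than 3000 bp were 13 of the 1003 (1.3%, 0.759 to 2.20), against 75 of the other 1739 (4.31%, 3.45 to 5.37). The 5 widest were chrX:11241008-11245570 (4563 bp), chrX:7826414-7830878 (4465 bp), chrX:1712139-1716332 (4194 bp), and chr2L:19581225-19585160 and chr2R:8025194-8029129 (3936 bp each). Their nearest peaks of another list lay 18.7, 32.3, 8.77, 9.06 and 3.77 kb away, so that none of the 5 was near the edge of the rule.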

How the data were processed

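Peak lists of 5 proteins from Kc167 cells were used, 1 per factor. Per the submitters' processing notes, the tools were Bowtie 0.12.8, Picard 1.77, bedtools 2.17.0, cutadapt 1.1 and Trimmomatic 0.20, and the build was dm3. Neither the caller nor its threshold, nor how 2 antibodies were combined, is given in the sources used here. The Mod(mdg4)2.2, Rump and Shep lists, as deposited, hold a score for each peak and a −log10 q-value by the narrowPeak layout. The Su(Hw) and CP190 lists the authors deposited hold positions only.

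Regions were built by merging peaks that overlap by 1 bp or more, which was tested on simulated data. Distances run from edge to edge. Chromosome shares were compared with Fisher's exact test. The regions named are the 5 widest members, 5 on each side of the rule's edge, the 3 most isolated, 3 windows with the most members (ties by chromosome and position), the longest runs and the members outside the arms. The members and the lists compared were chosen with earlier results of these data known. Computation used SciPy 1.17.1, pandas 2.3.3, NumPy 2.4.6 and matplotlib 3.10.9 under Python 3.11.15.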

Additional observations from a re-analysis of the deposited data

How the results depend on the processing

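The count of CP190-only regions stayed within 1.5 times of 1003 in 14 of 16 alternatives, from 912 to 1344. In 1 of the 14, by direct overlap of CP190 peaks, 1003 followed almost by definition. The count was 653 with peaks within 5000 bp merged, which joins members to neighbours. With the wider 50% of CP190 peaks, from a list of fewer peaks, it was 337. These were 24.7% (22.5 to 27) of 1365 regions with CP190, against 36.9% in the main setting. With peaks resized to 300 bp the count was 1201. For the chromosome shares, 56 of 59 values kept their direction and their side of the threshold, those by direct overlap among them. The odds ratio on 3R was 0.809 with peaks resized to 300 bp, no longer past the threshold, and that on 3L, which never passed, was 0.982 without the Shep list and 0.96 with peaks resized to 300 bp, below 1. The cause was not tested. The median width of members was 1987 bp on 2L alone, 1915 bp on 2R alone and 1990 bp without the peaks of fixed width, and that of other CP190 peaks was 2044 bp on 2L, 2048 bp on 2R and 2081 bp on X. The median distance to the nearest region was 8.82 kb from midpoint to midpoint. The setting without fixed-width peaks, the distances of 5 and 20 kb and the width classes with resized peaks were chosen after seeing the data. No paired analysis was possible because there is 1 list per factor and none per library, and the labels number no replicates. Without reads per library, how many members lie at sites where another protein fell just under its threshold could not be counted.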
